A study of Mus musculus with 38 samples.

Results

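The genes followed here encode 10 parts of the tight junction, measured across 6 groups of mouse intestinal epithelium, defined by genotype and day of experimental colitis. The members are Cldn1, Cldn2, Cldn3, Cldn4, Cldn7, Cldn8, Cldn15, Cldn23, Ocln and Tjp1, taken as the rows of the deposited count files that carry those gene names, 10 of 46078 genes. Tight junctions are the most apical seal between neighbouring epithelial cells. Claudins are membrane proteins that pair across the gap between cells. Some of them close the gap and others form channels through it. Occludin is a further membrane protein of the strands, and ZO-1 (encoded by Tjp1) is the scaffold that ties them to actin inside the cell. In the colon this barrier separates the bacteria of the lumen from the immune cells below the epithelium.

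The libraries came from intestinal epithelial cells of C57BL/6 mice, 1 library per animal. The series text speaks of colon tissue, the sample labels of epithelial cells. KO denotes mice with Cre recombinase under the Villin promoter, which is active in intestinal epithelium, and floxed Hk2 (labelled Hk2dIEC). Hk2 encodes hexokinase 2, an enzyme of the first step of glycolysis. WT denotes littermates that carry the floxed Hk2 alleles without deletion, housed together with the KO mice. Dextran sodium sulfate (DSS), a polymer that injures the colon epithelium, was given at 1.5% in drinking water to male mice of 10 to 12 weeks. Mice for phenotyping without DSS were 9 to 11 or 86 to 92 weeks old, and which of these ages applies to day 0 is not given in the sources used here. The groups held 4 WT and 5 KO libraries on day 0, 7 WT and 8 KO on day 3, and 7 WT and 7 KO on day 7. P-values below measure the spread between these animals. Comparisons asked how the genotypes differ on each day and how each genotype differs between days.

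Total counts ranged from 10.5 to 17.5 M in KO day 0 and from 12.7 to 44.9 M in WT day 0, against 25.2 to 60.6 M on days 3 and 7. Mitochondrial ribosomal RNA took 45.6% of the counts in d0_KO_32, 6.25 to 13.8% in the other 8 libraries of day 0 and at most 3.95% later. The day 0 libraries also carry another file prefix, so day 0 and library series cannot be told apart. Levels are given as CPM, the share of a library's counts scaled to a common total. Hk2 ran from 247 to 439 CPM in WT day 0 and from 31.2 to 111 CPM in KO day 0, where the genotypes did not overlap. It ran from 99.3 to 224 CPM in WT day 3, from 231 to 598 CPM in WT day 7 and from 56.6 to 260 CPM in KO day 7. In the library labelled d3_KO_345, Hk2 stood at 440 CPM, against 70.9 to 131 CPM in the other 7 libraries labelled KO on day 3. The Hk2 level of that library goes against its label, and it also lay above the range of WT day 3. The reason was not tested. Values include this library unless stated, and for many that move without it both are given. The ranges of Hk2 touched elsewhere too: d3_WT_346 at 99.3 CPM lay inside the range of the other KO day 3 libraries, and d7_KO_420 at 260 CPM lay above d7_WT_431 at 231 CPM. All these libraries were kept under their labels, and each was also left out in turn. All 8 general epithelial markers were detected in each group, with summed levels of 10645 to 24013 CPM over the 38 libraries. In bulk RNA, fewer cells of a type and less RNA per cell cannot be told apart, for every difference below.

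The 3 members that changed with the day in both genotypes were Cldn2, Cldn7 and Ocln, and the bases just before their outermost transcription starts are shown to place them in the genome. The windows are 250 bases from the RefSeq table on GRCm38.p6, written 5′ to 3′ in the direction of the gene. Capitals mark matches to the motifs searched. They lie at chrX:139800558-139800807 (+) for Cldn2 (ENSMUSG00000047230), chr11:69964529-69964778 (+) for Cldn7 (ENSMUSG00000018569) and chr13:100552719-100552968 (-) for Ocln (ENSMUSG00000021638). In the deposited files the genes themselves span chrX:139800828-139811386, chr11:69964779-69967885 and chr13:100496507-100552718, on GRCm38.
Cldn2: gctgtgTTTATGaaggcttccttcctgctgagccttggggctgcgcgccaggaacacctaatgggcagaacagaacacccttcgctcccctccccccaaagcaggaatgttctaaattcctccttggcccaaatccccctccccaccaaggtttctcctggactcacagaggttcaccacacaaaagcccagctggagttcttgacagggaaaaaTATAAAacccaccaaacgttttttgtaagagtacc
Cldn7: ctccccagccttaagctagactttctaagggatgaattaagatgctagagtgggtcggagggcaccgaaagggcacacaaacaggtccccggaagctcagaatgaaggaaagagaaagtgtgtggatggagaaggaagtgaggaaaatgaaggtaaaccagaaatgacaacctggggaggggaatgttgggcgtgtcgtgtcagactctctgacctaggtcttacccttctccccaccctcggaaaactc
Ocln: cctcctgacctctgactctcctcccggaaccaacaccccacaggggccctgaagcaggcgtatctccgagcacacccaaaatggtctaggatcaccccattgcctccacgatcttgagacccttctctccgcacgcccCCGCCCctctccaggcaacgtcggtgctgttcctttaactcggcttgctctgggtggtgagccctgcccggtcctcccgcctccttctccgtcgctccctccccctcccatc

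The 10 motifs were searched on both strands, and a match describes letters, not a bound factor. The Cldn2 window held TATAAA, the TATA box, 35 bases before the start. TATAAA occurred in 12.37% of 32851 promoter windows of the same length. The Cldn2 window also held TTTATG, a CDX motif, found in 10.76% of windows. The Ocln window held GGGCGG, the GC box of SP and KLF factors, on the opposite strand, a match shared by 32.74% of windows. The Cldn7 window held none of the 10 motifs. RefSeq lists a further start for Cldn7 and for Ocln inside the annotated gene, whose windows are not printed. The inner Cldn7 window held 4 matches, to the GC box, the STAT motif and, at 2 places, the E-box, and the inner Ocln window held 3, to the GC box and, at 2 places, the E-box. Of the 3 windows shown, that of Ocln was the richest in G and C, with 64.0% and 14 CpG pairs, against a median of 52.4% and 6 over all windows. The other motifs were CAGGTG (Snail-type E-box, 17.22% of windows), AGATAA (a motif of GATA factors, 9.988%), CTTTGA (TCF, 13.83%), TTCNNNGAA (STAT, 7.02%), the NF-kB motif (1.412%), CAAAGTCCA (HNF4, 0.3835%) and AACCGGTT (GRHL, 0.1157%). None of these others matched in the 3 windows shown. RefSeq windows were matched for 8 of the 10 genes, Cldn8 and Cldn23 being the others.

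Cldn3 and Cldn7, both sealing claudins, dominated the claudin RNA of every group. Levels are compared between genes as CPM per kb of exon. In WT day 0, Cldn3 stood at 319 ± 34.2 CPM per kb (SD, n = 4) and Cldn7 at 255 ± 13.5. Cldn15, the next claudin, stood at 62.6 ± 17.6 CPM per kb. Below it in WT day 0 came Cldn23 at 54.8, Cldn8 at 49.4, Cldn2 at 36.7, Cldn4 at 35.7 and Ocln at 34.3 CPM per kb, and no neighbours in this stretch differed beyond their SDs. Tjp1 was lower at 21.9 ± 2.74 CPM per kb. Cldn1, the claudin of the skin barrier, was close to absent: all 38 libraries together held 158 Cldn1 counts, and no library held more than 17. It was too low to be tested in any comparison of the full groups, so 9 of the 10 members were tested throughout. A count of 0 in a library allows up to 3 counts.

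The 8 claudins followed here made up 97.8 to 98.3% of the summed level per kb of 23 claudins, as group means. These 23 came from the gene lists chosen here and were found in the files. Cldn12 gave most of the rest, at 1.59 to 1.96%. The summed claudin level was 832 ± 79.1 CPM per kb in WT day 0 and 862 ± 77.0 in KO day 0. It stood at 1097 ± 121 in WT day 3 and 1080 ± 38.8 in KO day 3 (1079 ± 41.7 without the library labelled d3_KO_345), and at 1111 ± 153 and 1068 ± 144 on day 7. Within that sum the order of the leading claudins turned over between days. Cldn3 held 38.3% of it in WT day 0 and 34.7% in WT day 7, while Cldn7 held 30.7% and then 39.3%. In KO the share of Cldn3 was 37.8% on day 0 and 33.1% on day 7, and that of Cldn7 was 29.7% and 39.4%. The channel-forming pair Cldn2 and Cldn15 together held 11.2 to 14.5% in every group.

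**Figure D1:**
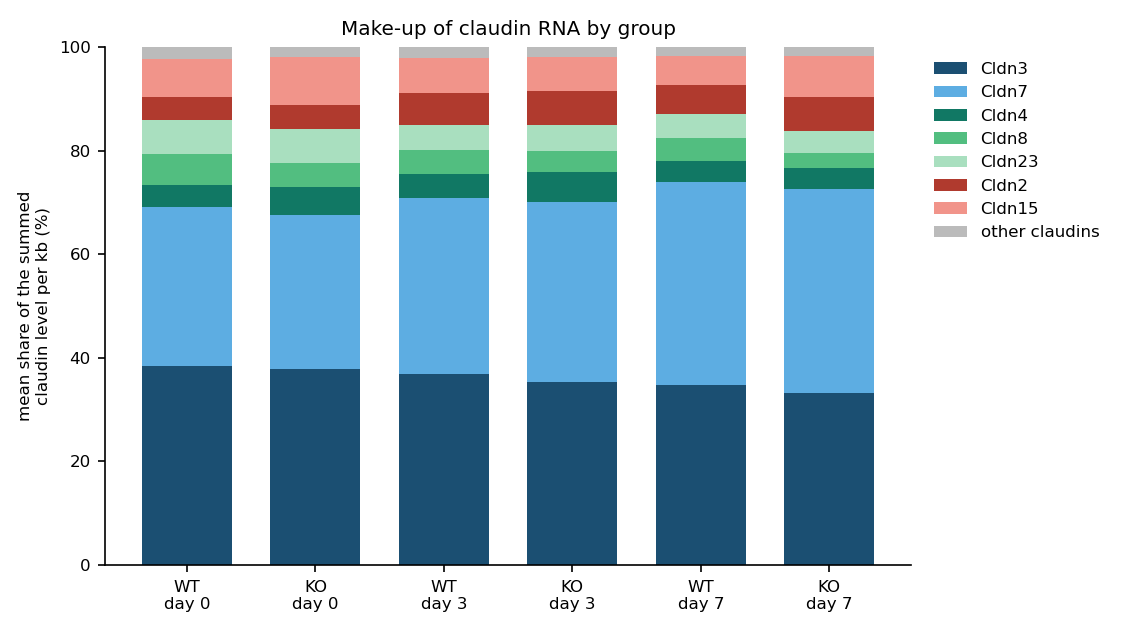
Mean share (%) of each claudin in the summed claudin level per kb, 1 bar per genotype and day. The Cldn7 segment is 29.7 to 30.7% on day 0 and 39.3 to 39.4% on day 7, and the Cldn2 and Cldn15 segments together are 11.2 to 14.5% in all 6 bars.

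Counted by library, Cldn7 was above Cldn3 per kb in 0 of 4 WT and 0 of 5 KO libraries on day 0. It was above in 1 of 7 WT and 4 of 8 KO libraries on day 3 (3 of 7 KO without the library labelled d3_KO_345), and in 6 of 7 WT and 7 of 7 KO libraries on day 7. The median ratio of Cldn7 to Cldn3 was 0.801 in WT day 0, 0.930 in WT day 3 and 1.11 in WT day 7. In KO it was 0.759, 1.00 (0.948 without that library) and 1.20. Of the non-claudin members, Ocln was above Tjp1 per kb in 4 of 4 WT and 5 of 5 KO libraries on day 0. On day 3 it was above in 7 of 7 WT and 7 of 8 KO libraries (7 of 7 KO without that library). On day 7 it was above in 5 of 7 WT and 2 of 7 KO libraries, with median ratios of 1.05 and 0.983. The order thus turned in KO alone, and on day 7 the 2 genes overlapped within their SDs in both genotypes. Cldn2 was above Cldn15 in 0 of the 9 day 0 libraries, in 1 of 7 WT and 5 of 8 KO libraries on day 3 (4 of 7 KO without that library), and in 3 of 7 WT and 2 of 7 KO libraries on day 7.

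The genotypes are compared first. None of the 9 tested members differed between KO and WT on any day by the edgeR quasi-likelihood test with adjusted p under 0.05, the threshold for every call. On day 0 this was 0 of 9 against 0.0335% of 14944 genes (0.0201% higher and 0.0134% lower), on day 3 it was 0 of 9 against 0.00647% of 15461 genes, and on day 7 it was 0 of 9 against 0.00642% of 15584 genes. In a model of all 38 libraries with day as a term it was 0 of 9 against 0.0209% of 19144 genes. The DESeq2 Wald test also called 0 members in each, and before adjustment 1 member on day 0, 0 on day 3, 1 on day 7 and 1 over all days had p under 0.05. The median log2 fold change of the members was 0.066 on day 0, -0.003 on day 3 and -0.049 on day 7, beside -0.003, -0.005 and -0.005 for all genes. So few genes of any kind were called that the absence of members among them is near the background. Hk2 itself passed on day 0, with a log2 fold change of -2.20 and an adjusted p of 0.0331. It did not pass on day 3 (-0.27, adjusted p 0.802), on day 7 (-1.25, 0.291) or over all days (-1.09, 0.122). These Hk2 values of day 3 and of all days include the library labelled d3_KO_345 and are not given without it.

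These tests still bound the size of a genotype difference. On day 3 the 95% intervals of the fold KO over WT ran from 0.683 at the lowest to 1.68 at the highest over the 9 members. On day 0 they ran from 0.645 to 2.39 and on day 7 from 0.393 to 1.94, and on each day the lowest bound was that of Cldn8 and the highest that of Cldn4. The intervals of Cldn7 and Ocln were narrower. For Cldn7 the fold lay between 0.873 and 1.20 on day 0, 0.859 and 1.16 on day 3, and 0.822 and 1.14 on day 7. For Ocln the interval was 0.868 to 1.04 on day 3 and 0.803 to 1.11 on day 7. The day 3 intervals include the library labelled d3_KO_345 and are not given without it.

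**Figure D2:**
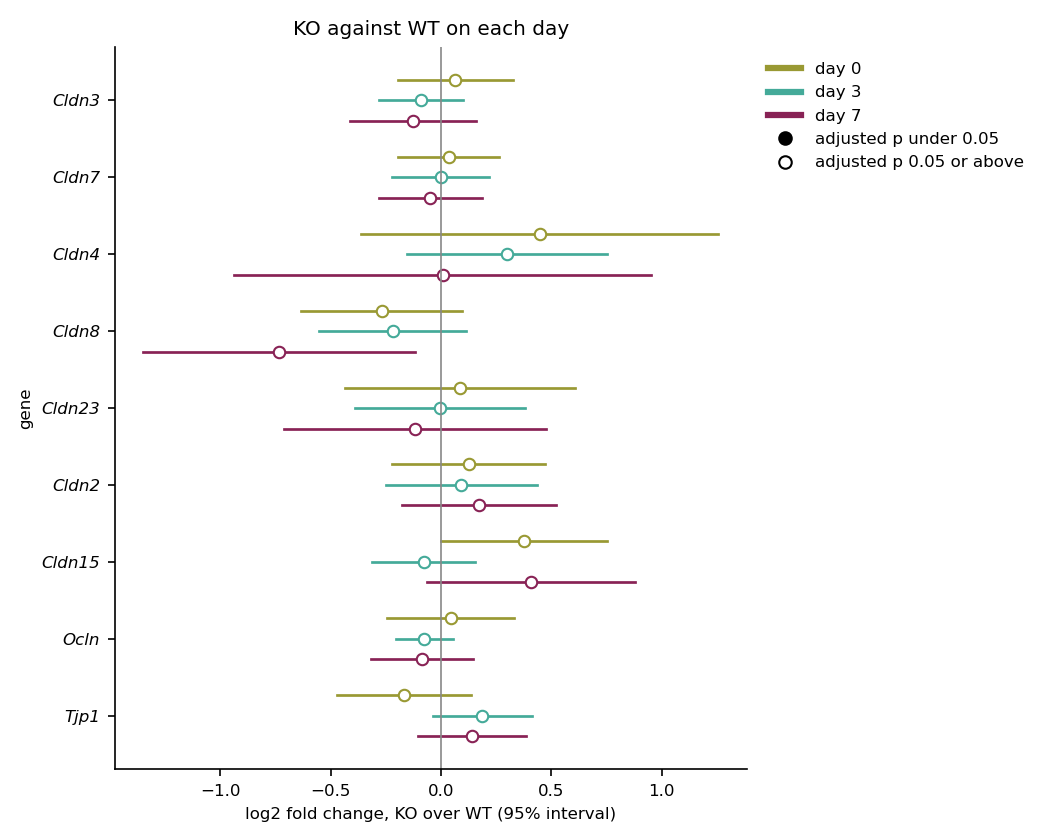
Log2 fold change of KO over WT (horizontal axis, point) with its 95% interval (line) for 9 tight junction genes on days 0, 3 and 7. All points are open because no adjusted p was under 0.05, and Cldn8 on day 7 has the lowest point at -0.73.

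Cldn8, a sealing claudin of the distal gut and kidney, had the lowest value of the genotype comparisons. In WT day 7 its level ran from 73.3 to 208 CPM with a median of 97.8, and in KO day 7 from 29.04 to 115 with a median of 77.7. The 2 groups overlapped, and 3 KO libraries lay below the lowest WT library. The log2 fold change was -0.73 (SE 0.29) on day 7 with an adjusted p of 0.340, and it was -0.42 (SE 0.14) over all days with an adjusted p of 0.335. On day 0 the 4 WT libraries stood at 79.1, 123, 131 and 133 CPM and the 5 KO libraries at 80.4, 81.9, 82.8, 112 and 116 CPM. The distal hindgut markers, Hox genes of the last part of the gut, had summed levels of 22.3 to 156 CPM in WT day 7 and 12.1 to 85.4 CPM in KO day 7. None of the 4 of these markers that were tested passed between genotypes on day 7, and their part in the Cldn8 values was not tested.

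Cldn15, which forms sodium channels in the junction, had the highest value among the members between genotypes on day 7. On day 0 the WT libraries stood at 105, 114, 126 and 187 CPM and the KO libraries at 141, 146, 173, 180 and 206 CPM. The d0_WT_31 library was the only WT library inside the KO range. The log2 fold change was 0.38 (SE 0.17) on day 0 with an adjusted p of 0.476, and without d0_WT_31 it was 0.59 (SE 0.13) with 0.0676. On day 7 Cldn15 ran from 75.1 to 164 CPM in WT (median 132) and from 71.4 to 218 CPM in KO (median 180), with a log2 fold change of 0.41 (SE 0.22) and an adjusted p of 0.428. In KO, 6 of the 7 libraries were above the highest WT library, and d7_KO_420 was below every WT library. On day 3 the value was -0.08 (SE 0.11), and the groups overlapped.

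Without the library labelled d3_KO_345, the day 3 genotype test again called 0 members, with log2 fold changes from -0.28 for Cldn8 to 0.23 for Cldn4. Over all days Cldn8 was then -0.45 (SE 0.14, adjusted p 0.378). Tjp1 was highest in that library: it stood at 217 CPM there and at 128 to 174 CPM in the other 7 libraries labelled KO. The log2 fold change of Tjp1 on day 3 was 0.19 (SE 0.11) with it and 0.11 (SE 0.09) without it. The same library held the highest Cldn4 and Cldn7 and the lowest Cldn15 of its group. It also had 40.0 CPM of summed neutrophil markers, when no other library of days 0 and 3 was above 3.47 CPM.

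The days are compared within each genotype. Between day 3 and day 7, which share a library series, Ocln was the 1 member that fell, and it fell in both genotypes. In WT this was 1 of 9 members against 19.3% of 15541 genes called in either direction and 8.7% called lower. In KO it was also 1 of 9, against 19.3% of 15568 genes in either direction and 8.83% lower. These shares of members are below or near the background. The median log2 fold change of the members was -0.05 in WT and -0.10 in KO, beside 0.01 and -0.01 for all genes.

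Occludin RNA ran from 106 to 138 CPM in WT day 3, with a median of 114, and from 88.7 to 119 CPM in WT day 7, with a median of 94.7. Of the WT day 7 libraries, 6 of 7 lay below the lowest WT day 3 library, the exception being d7_WT_393. The log2 fold change was -0.26 (SE 0.08), a fold of 0.837, with an adjusted p of 0.0406. In KO, Ocln ran from 107 to 120 CPM on day 3 (median 109) and from 71.8 to 123 CPM on day 7 (median 89.3). Again 6 of the 7 day 7 libraries lay below every day 3 library, the exception being d7_KO_420. The log2 fold change was -0.28 (SE 0.09), a fold of 0.822, with an adjusted p of 0.0347, and it was -0.29 (SE 0.09) with 0.0382 without the library labelled d3_KO_345. The test of the difference between the genotypes in this change gave -0.01 (SE 0.12), so the interval of the ratio of the 2 folds was 0.836 to 1.18. That difference was -0.02 (SE 0.13) when the library labelled d3_KO_345 was left out.

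These Ocln calls lie close to the threshold. In WT the adjusted p rose to between 0.0572 and 0.0839 when any 1 of d3_WT_348, d3_WT_352, d3_WT_486, d3_WT_487, d7_WT_356, d7_WT_361, d7_WT_370, d7_WT_419 or d7_WT_431 was left out. In KO it rose to between 0.05005 and 0.0773 without any 1 of d3_KO_349, d3_KO_350, d3_KO_351, d3_KO_385, d3_KO_392, d7_KO_366, d7_KO_367, d7_KO_368 or d7_KO_422. Without d7_KO_420, whose Ocln was the highest of its group, the KO value was -0.37 with an adjusted p of 0.000516. The direction was the same in all 29 fits that left out a library. With the log2 sum of 9 immune markers as a covariate the KO value was -0.08 (SE 0.21, adjusted p 0.930) and the WT value -0.28 (SE 0.17, adjusted p 0.784), and 0 genes at all were called in either genotype. The immune sum did not overlap between these days. It was at most 195 CPM on day 3 and at least 221 on day 7 in WT, and 265 and 315 in KO. These fits therefore cannot tell the immune sum apart from the day.

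Several marker sums moved with the day beside Ocln. The 9 immune markers summed to a median of 88.9 CPM in WT day 3 and 351.95 in WT day 7, and to 113 and 588 in KO, and 8 of 9 rose in WT and 9 of 9 in KO, where 10.6% and 10.5% of all genes were called higher. All 7 neutrophil markers rose in both genotypes. Of all genes, 8.7% were called lower in WT and 8.83% in KO. All 5 distal hindgut markers fell in both, their summed median going from 277 to 64.1 CPM in WT and from 226 to 50.1 in KO. Of the 8 epithelial markers, 0 passed in WT and 1 fell in KO, near these shares, with summed medians between 17608 and 18617 CPM. Of 6 goblet cell markers, 1 fell in WT, near that share, and 4 fell in KO. The summed goblet median was 11982 and then 8239 CPM in WT, and 15305 and then 7430 CPM in KO. The part of the immune sum in the Ocln values could not be told apart from the day, and that of the other sums was not tested.

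The other members did not pass between day 3 and day 7. Cldn7 had a log2 fold change of 0.23 (SE 0.12, adjusted p 0.201) in WT and 0.16 (SE 0.09, adjusted p 0.261) in KO. Its level ran from 630 to 968 CPM in WT day 3 and from 679 to 960 CPM in WT day 7, and d3_WT_381 held the highest WT value of both days. Without that library the WT value was 0.30 with an adjusted p of 0.0359. Cldn8 had -0.51 (SE 0.23, adjusted p 0.144) in KO and 0.02 (SE 0.23) in WT, and the difference between them was -0.51 (SE 0.34, adjusted p 0.9999), or -0.46 (SE 0.34) with the library labelled d3_KO_345 left out. Without d7_KO_420 the KO values of Cldn8 and Cldn15 passed, at -0.67 with an adjusted p of 0.0403 and 0.32 with 0.0370.

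The difference between genotypes in the change from day 3 to day 7 was tested for all genes. It called 0 of 9 members and 0% of 16371 genes, with 0 members and 440 genes at an unadjusted p under 0.05, and DESeq2 also called 0 genes. The highest member value was that of Cldn15, at 0.49 (SE 0.25), and the lowest that of Cldn8. The Cldn15 mean was lower in WT on day 7 than on day 3 (129 against 158 CPM) and higher in KO (172 against 150 CPM). Without the library labelled d3_KO_345 the Cldn15 value was 0.44 (SE 0.25).

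**Figure D3:**
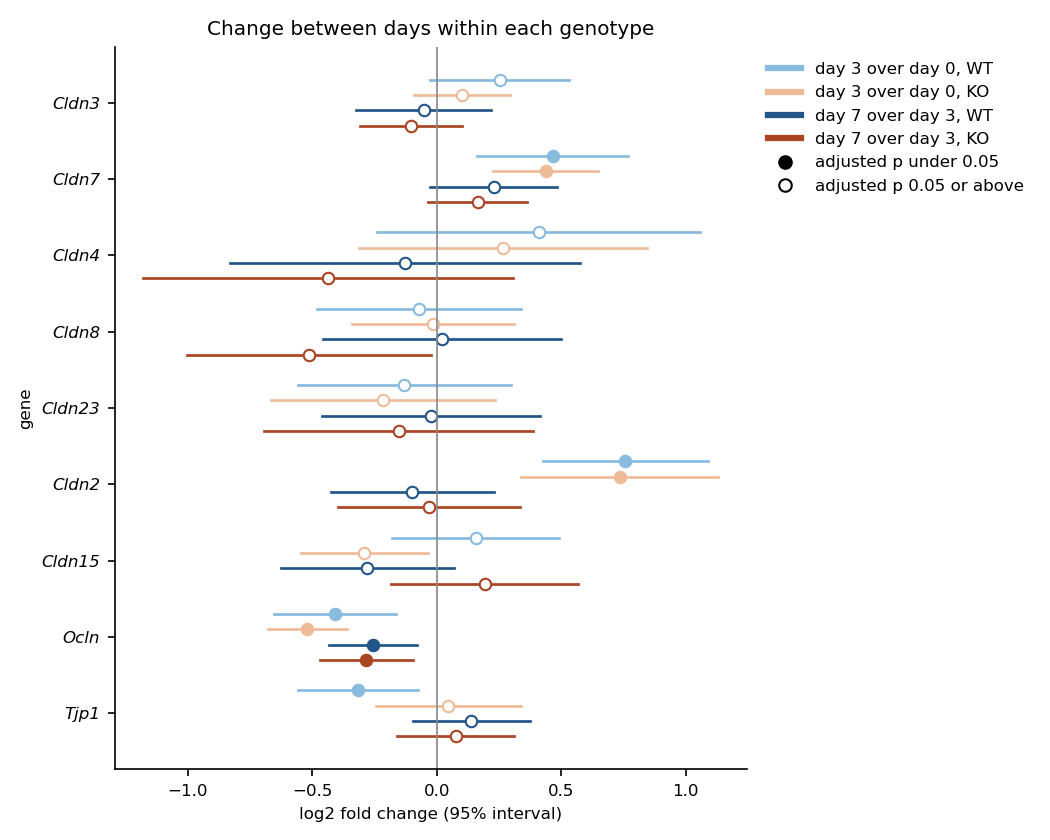
Log2 fold change (horizontal axis, point) with its 95% interval (line) of 9 tight junction genes for day 3 over day 0 and day 7 over day 3 in WT and KO. Filled points have an adjusted p under 0.05. Ocln is filled and below 0 in all 4, and Cldn2 and Cldn7 are filled and above 0 only for day 3 over day 0.

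Against day 0, Cldn2 and Cldn7 were higher and Ocln lower on day 3, in both genotypes, and here the day cannot be told apart from the library series. In WT 4 of 9 members were called, 2 higher and 2 lower, against 46% of 17152 genes (20.4% higher, 25.6% lower). In KO 3 of 9 were called, 2 higher and 1 lower, against 46.3% of 16010 genes (22.6% higher, 23.7% lower). The members' counts are thus near or below the background. On day 7 against day 0, 3 of 9 members were called in WT against 56.9% of 17428 genes (27.8% higher, 29.2% lower). In KO 3 of 9 were called against 54.6% of 16367 genes (27.3% higher, 27.3% lower). These were Cldn2, Cldn7 and Ocln in each, and with the immune covariate Cldn7 alone passed in WT and 0 members in KO. Cldn2 and Ocln then had adjusted p of 0.131 and 0.0618 in WT, and 0.218 and 0.930 in KO. In KO the immune sum was at most 71.6 CPM on day 0 and at least 76.7 on day 3 and 315 on day 7. In WT, days 0 and 7 overlapped through d0_WT_41 alone, at 262 CPM. Fits with the covariate can thus hardly tell the immune sum from the day. Comparisons with day 0 share the day 0 libraries, so their values are set side by side and not counted as separate support.

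Cldn2, the channel for cations and water that in colon is found mainly in crypts, was the member with the largest fold on day 3 in both genotypes. Its WT day 0 libraries stood at 113, 115, 127 and 133 CPM. In WT day 3 it ran from 161 to 294 CPM (median 203) and in WT day 7 from 146 to 273 CPM (median 197). Every WT library of days 3 and 7 was above every WT day 0 library. The log2 fold change was 0.76 (SE 0.15, adjusted p 0.00121), a fold of 1.69 with an interval of 1.35 to 2.13, on day 3, and 0.67 (SE 0.16, adjusted p 0.00275) on day 7. The KO day 0 libraries stood at 86.4, 122, 134, 139 and 168 CPM, and KO ran from 167 to 348.1 CPM on day 3 and from 160 to 309 CPM on day 7. The KO groups overlapped through d0_KO_53, the library at 168 CPM. The KO values were 0.73 (SE 0.19, adjusted p 0.00460) on day 3 and 0.71 (SE 0.19, adjusted p 0.00533) on day 7, and 0.77 on day 3 without the library labelled d3_KO_345. The summed median of the crypt and proliferation markers was 562 CPM in WT day 0 and 341 in WT day 3, and 499 and 337 CPM in KO. Of these 6 markers 3 were lower in WT, beside 25.6% of all genes, and 4 in KO, beside 23.7%. Their part in the Cldn2 values was not tested.

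Cldn7, a sealing claudin also found along the sides of the cell, stood at 470, 488, 492.5 and 533 CPM in WT day 0 and at 438, 457, 496, 526.1 and 566 CPM in KO day 0. From day 3 on the lowest library of either genotype stood at 630 CPM, so that day 0 did not overlap with the later days. On day 3 the log2 fold change was 0.47 (SE 0.14, adjusted p 0.0157) in WT and 0.44 (SE 0.10, adjusted p 0.00205) in KO. On day 7 it was 0.70 (SE 0.12, adjusted p 0.000356) in WT and 0.61 (SE 0.12, adjusted p 0.000602) in KO. The KO day 3 value was 0.40 (adjusted p 0.00325) when the library labelled d3_KO_345 was left out, and 0.23 (adjusted p 0.238) with the immune covariate. The summed median of the general epithelial markers was 13000 CPM in WT day 0 and 17608 in WT day 3, and 13048 and 18277 in KO. Of these 8 markers 1 rose in WT, beside 20.4% of all genes, and 3 rose in KO, beside 22.6%, and their part in the Cldn7 values was not tested.

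Ocln was at 117, 131, 165 and 166 CPM in WT day 0 and at 128, 132, 144, 152 and 175 CPM in KO day 0. On day 3 its log2 fold change was -0.41 (SE 0.11, adjusted p 0.0102) in WT and -0.52 (SE 0.07, adjusted p 3.743e-05) in KO, and it was also -0.52 in KO without the library labelled d3_KO_345. On day 7 it was -0.66 (SE 0.11, adjusted p 0.000312) in WT, a fold of 0.633, and -0.79 (SE 0.12, adjusted p 0.000120) in KO, a fold of 0.577. In KO no library of day 3 or day 7 reached the lowest day 0 library. In WT the groups of day 0 and day 3 overlapped, d0_WT_43 at 117 CPM and d0_WT_41 at 131 CPM lying below d3_WT_381 at 138 CPM. On day 7 the overlap was between d0_WT_43 and d7_WT_393 at 119 CPM. Ocln was called in all of the leave-one-out fits of these 4 comparisons.

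Tjp1 was the fourth member called in WT day 3 against day 0. Its WT day 0 libraries stood at 137, 153, 174 and 181 CPM, and WT day 3 ran from 117 to 171 CPM with a median of 137. The groups overlapped, and the log2 fold change was -0.32 (SE 0.11, adjusted p 0.0340). In KO the value was 0.05 (SE 0.14, adjusted p 0.804), with day 0 libraries at 111, 123, 140, 148 and 178 CPM. Without the library labelled d3_KO_345, the highest of KO day 3 for Tjp1, the direction turned, at -0.04 (SE 0.11). Whether the 2 genotypes differed in this change was not tested. The WT call was lost without d0_WT_31, d0_WT_41, d0_WT_46, d3_WT_353 or d3_WT_486, at adjusted p between 0.0515 and 0.123. It was also lost with no filter on low genes (adjusted p 0.104) and in a fit of all 38 libraries (0.0749).

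**Figure D4:**
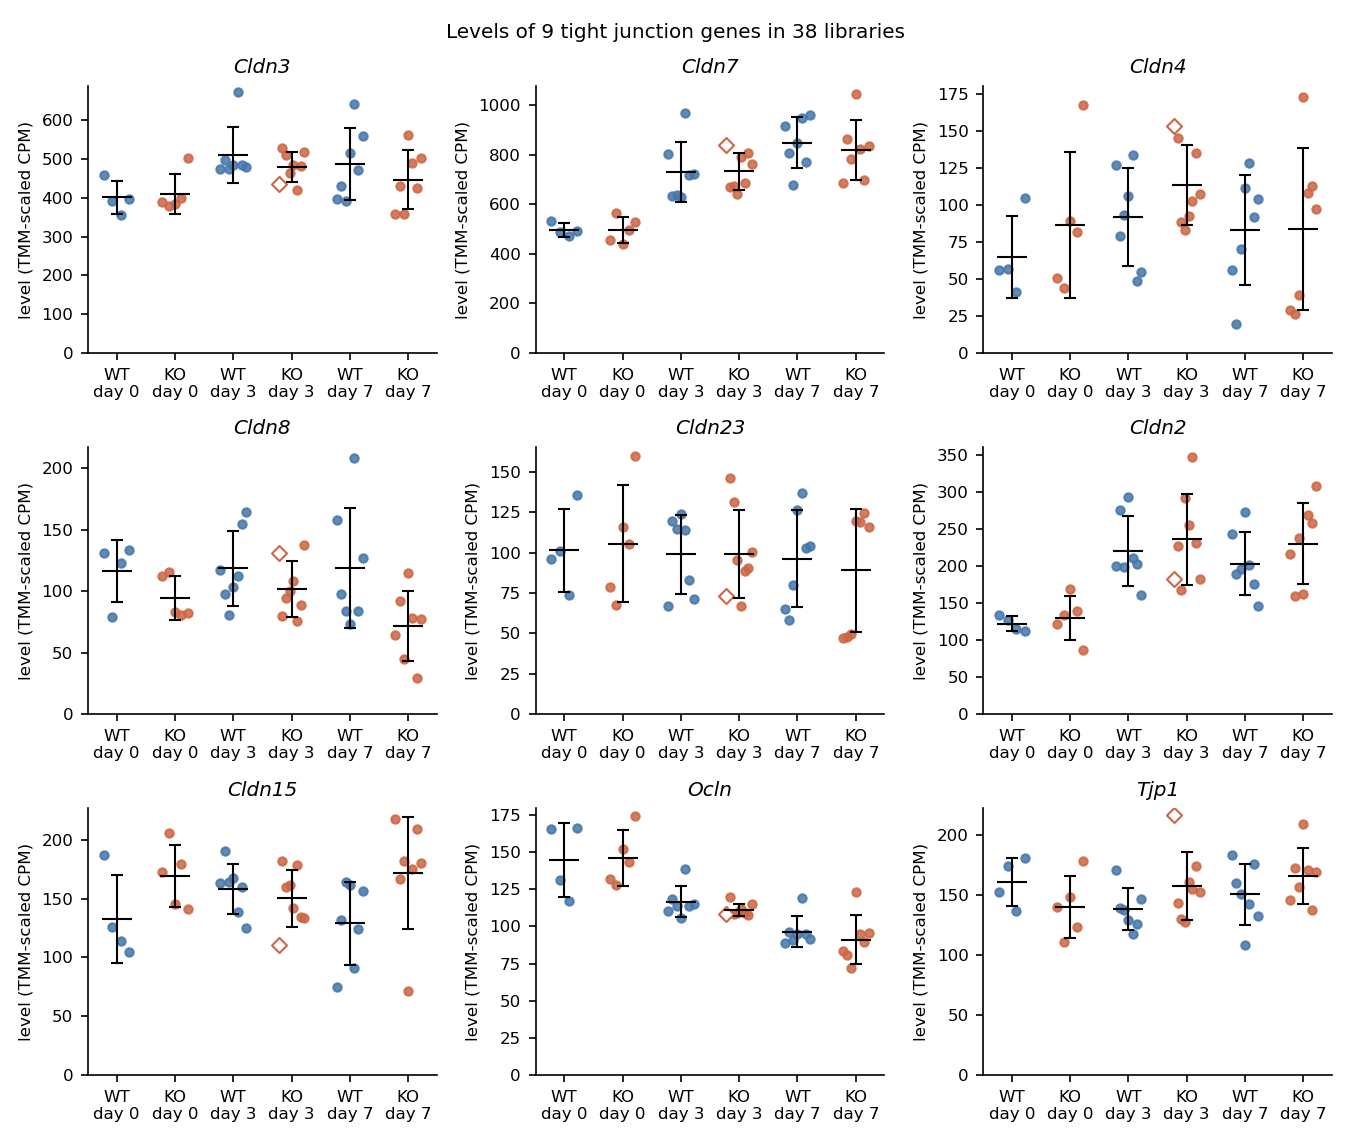
Level (TMM-scaled CPM, each axis from 0) of 9 tight junction genes by genotype and day, 1 point per library, with bars for mean and SD. The open diamond is the library labelled d3_KO_345. Cldn7 on days 3 and 7 sits above all day 0 points, and Ocln steps down from 145 and 146 CPM (means) on day 0 to 96.6 and 91.1 CPM on day 7.

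Cldn3, Cldn4, Cldn8 and Cldn23, all sealing claudins, passed in none of these comparisons. Cldn3 had group means between 402 ± 43.1 CPM (WT day 0, n = 4) and 510 ± 72.3 CPM (WT day 3, n = 7), and log2 fold changes between days from -0.10 to 0.25. In WT the lowest Cldn3 library of day 3, at 474 CPM, was above the highest of day 0, at 460 CPM, yet the adjusted p was 0.128. Cldn23, a claudin of the luminal gut epithelium, had means from 89.0 ± 38.3 CPM (KO day 7) to 105 ± 36.2 CPM (KO day 0). Cldn4, another sealing claudin, had the widest spread of the 9 tested members on day 7, with a coefficient of variation of 65.2% in KO and 44.7% in WT. Its highest library on that day was 6.62 times the lowest in KO and 6.50 times in WT. Cldn8 means lay between 71.5 ± 28.6 CPM (KO day 7) and 119 ± 49.2 CPM (WT day 7).

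Leaving out single libraries added members to the day 0 comparisons. Cldn15 passed in WT day 3 without d0_WT_31, at 0.39 with an adjusted p of 0.0205. In KO day 3, where its value was -0.29 (SE 0.12, adjusted p 0.0589), it was -0.24 without the library labelled d3_KO_345 and passed without d3_KO_349, d3_KO_351, d3_KO_387 or d0_KO_60, at -0.34 to -0.32 and adjusted p of 0.0318 to 0.0480. Without d0_KO_60, Cldn4 also passed in KO day 3, at 0.65 with an adjusted p of 0.0284, which brings the KO count to 5 members. Cldn8 passed in KO day 7 without d7_KO_420, at -0.68 with an adjusted p of 0.0252.

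The members did not move as 1 block from animal to animal. Pearson correlations of log2 levels were taken over the 29 libraries of days 3 and 7 after subtracting group means, and are given as descriptions, since the points share library scaling and depth. Of 36 pairs, 8 had r above 0.5 and 4 had r below -0.5. The closest pair was Cldn3 with Ocln, at r = 0.80 (Spearman 0.70), and r = 0.71 without d3_WT_381 and d7_WT_393, the 2 libraries farthest from the median. Cldn4 went with Cldn23 at r = 0.75, and Cldn3 with Cldn23 at 0.69. Cldn15 ran against Cldn8 (r = -0.69), Cldn7 (-0.67) and Tjp1 (-0.61). With Ocln it had r = -0.53 (Spearman -0.22), and r = -0.39 without d7_WT_356 and d7_KO_420. The other channel-forming claudin, Cldn2, had r = 0.35 with Cldn15. Ocln and Tjp1, whose proteins bind each other, had r = 0.08.

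**Figure D5:**
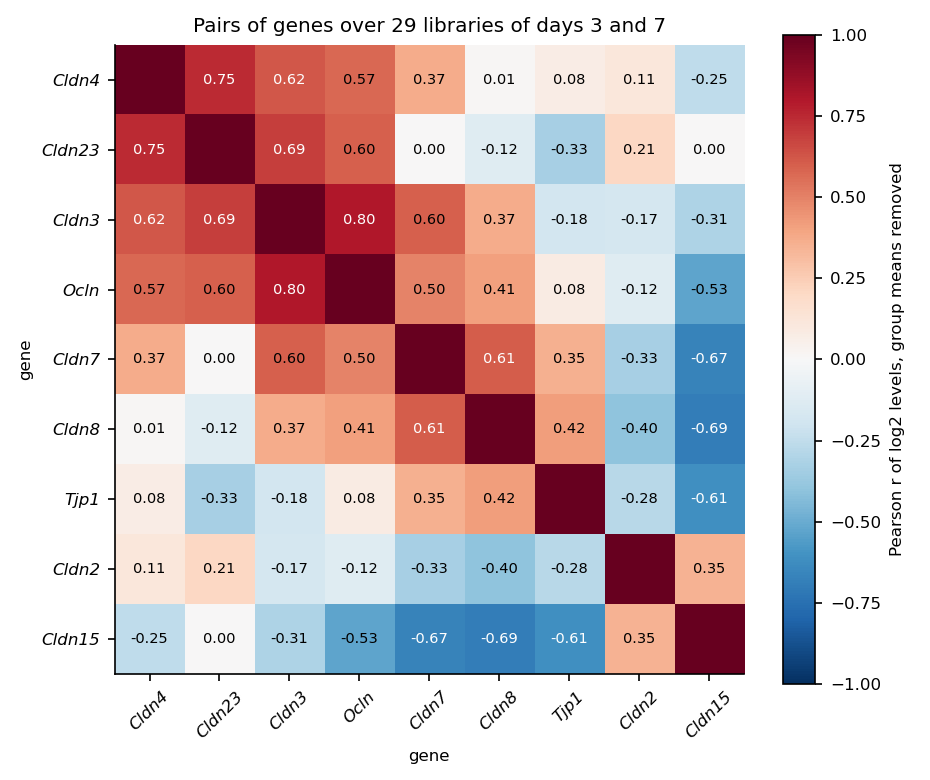
Pearson r between log2 levels of each pair of 9 tight junction genes over the 29 libraries of days 3 and 7, group means removed, from -1 (blue) to 1 (red). Cldn3, Cldn4, Cldn23 and Ocln form the red corner, at r from 0.57 to 0.80, and Cldn15 is blue against Cldn7, Cldn8 and Tjp1.

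Cldn7 followed the summed epithelial markers at r = 0.90 (Spearman 0.90) over the same libraries, and at 0.88 without the 2 farthest. Tjp1 went with the summed neutrophil markers at r = 0.70, and at 0.52 without d7_KO_420 and the library labelled d3_KO_345. Cldn8 went with the distal hindgut markers at r = 0.55, and at 0.36 without the 2 farthest. It was about as close to the summed epithelial markers, at r = 0.53, and at 0.57 without the 2 farthest. With the smooth muscle markers it had r = 0.51, and 0.35 without the 2 farthest. Cldn15 ran against the smooth muscle markers at r = -0.74, and at -0.47 without d7_WT_356 and d7_KO_420. It also ran against the squamous epithelium markers, at r = -0.68, and at -0.65 without the 2 farthest. In each of these lists 2 of 6 markers passed the filter on low counts between day 3 and day 7, in either genotype. For Ocln, the protein-coding genes most like it among 8885 ranked included Gabarapl1 (r = 0.86) and Pdgfa (r = 0.85).

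Within day 7 the animals differed widely in the 7 neutrophil markers, whose sum ran from 81.2 to 909 CPM in WT and from 34.1 to 1369 CPM in KO. A model with genotype and the log2 of that sum called 0 of 9 members by edgeR, against 3.8% of 15584 genes (3.38% with a positive and 0.424% with a negative slope). Before adjustment 2 members and 4013 genes had p under 0.05. Cldn15 had a slope of -0.21 (SE 0.07) on the log2 scale per doubling of the neutrophil sum, with an adjusted p of 0.0918, and DESeq2 called it at an adjusted p of 0.0207. Without d7_KO_420 the edgeR slope was -0.11 (SE 0.07, adjusted p 0.562). Its lowest 2 libraries of day 7, d7_KO_420 at 71.4 CPM and d7_WT_356 at 75.1 CPM, had neutrophil sums of 1369 and 748 CPM. The other library with a high neutrophil sum, d7_WT_419 at 909 CPM, had 124 CPM of Cldn15. Tjp1 had 0.09 (SE 0.03) per doubling with an adjusted p of 0.130, and Ocln 0.04 (SE 0.04) with 0.495.

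The wider junction gives the setting for these members. Of 15 further claudins, 3 were tested in each genotype between day 3 and day 7, and the rest did not pass the filter on low counts. Cldn10 rose in WT and was not tested in KO, and Cldn14 fell in KO and did not pass in WT. Both were scarce: Cldn10 held 0.0168% of the summed claudin level per kb in WT day 7, and Cldn14 held 0.10% in KO day 3. Among 5 tricellular and MARVEL proteins, Ildr1, which helps to seal corners where cells meet, rose by 0.64 in WT and 0.54 in KO on the log2 scale. Lsr, which marks the same corners, fell by 0.97 and 0.72, and Marveld2, which encodes tricellulin, had -0.03 in both. Of 7 junction immunoglobulin proteins, 6 were tested, and 1 rose and 2 fell in WT and 0 rose and 3 fell in KO. Of all genes, 10.6% were called higher and 8.7% lower in WT, and 10.5% and 8.83% in KO. Cxadr and Esam fell in both genotypes, with Cxadr at -0.25 and -0.28 and Esam at -1.30 and -0.93. Esam, an endothelial adhesion protein, stood near 1 CPM or lower.

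Among scaffold and polarity genes between day 3 and day 7, of 17 tested, 2 rose and 0 fell in each genotype, near the 10.6% of all genes called higher in WT and 10.5% in KO. Magi2 rose in both, by 1.11 in WT and 0.84 in KO on the log2 scale, from group means of 0.369 and 0.436 CPM on day 3. Against day 0, 9 of 17 were lower on day 3 in WT, beside 25.6% of all genes, and 9 of 17 in KO, beside 23.7%. In WT 0 were higher, beside 20.4%, and in KO 1, beside 22.6%. Medians were -0.43 in WT and -0.36 in KO over the list, and 0.03 and 0.01 over all genes. On day 7 against day 0, 7 of 17 were lower in WT, beside 29.2%, and 6 of 17 in KO, beside 27.3%. Then 2 were higher in WT and 1 in KO, beside 27.8% and 27.3%. In every comparison with day 0 the day cannot be told apart from the library series. Among the genes lower on day 3 was Magi3, a scaffold with PDZ domains like ZO-1, at -0.81 in WT and -0.52 in KO. Of 7 junction immunoglobulin genes, 1 was higher and 3 lower on day 3 than on day 0 in WT, beside 20.4% and 25.6% of all genes. In KO 2 were higher and 2 lower, beside 22.6% and 23.7%. The medians over that list were -0.23 in WT and -0.58 in KO. F11r, the adhesion molecule JAM-A, was among the genes higher on day 3, by 0.59 in WT and 0.49 in KO. Of 14 junction regulators, St14, a membrane protease, rose between day 3 and day 7 by 0.35 in WT and 0.34 in KO. The desmosome, a separate adhesion structure, had 4 of 6 genes higher in WT and 1 of 6 in KO, beside 10.6% and 10.5% of all genes, with Dsc2 higher in both by 0.48 and 0.40. Of 8 adherens junction genes, 1 rose and 1 fell in WT, near the 10.6% of all genes called higher and 8.7% lower. In KO 0 passed, beside 10.5% higher and 8.83% lower. No tested gene of these lists passed between genotypes on any day.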

How the data were processed

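The authors deposited raw counts per gene, as whole numbers, for 2 lanes of each of 38 libraries. Per the file headers these counts were made with featureCounts 1.6.2 on read pairs with strand ignored, although the labels name a stranded kit. The submitters' processing notes name Trim Galore, STAR, featureCounts 1.5.2 and the GRCm38 build. Lanes were summed. Reads of Cldn3 and of the overlapping antisense gene Wbscr25 cannot be told apart without strand, and Wbscr25 received 702 counts in all against 671990 for Cldn3.

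Levels are CPM scaled by TMM, without a filter. Tests used edgeR 4.0.16 (R 4.3.3) with its quasi-likelihood test, TMM and its expression filter, on the compared groups alone, with Benjamini-Hochberg adjustment over all genes tested. Each SE is the absolute log2 fold change divided by the square root of its F value. Alternatives were DESeq2 1.42.0 size factors and Wald test, no filter, removal of mitochondrial and ribosomal RNA genes, a fit of all 38 libraries, an immune covariate, and leaving out each library. Medians of gene levels over libraries are given for groups of more than 5. Medians of ratios and of marker sums are also given for the smaller day 0 groups. The procedure was tested on simulated data.

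The members, lists, tests and rules were chosen with earlier results of these data known. Named genes were the members, Hk2, up to 2 genes per list and direction called in both genotypes between day 3 and day 7, and up to 3 genes most like a member called in both. Cldn10, Cldn14, Marveld2, Magi3 and F11r were named after their values were seen. Some genes that the rule names are not reported here.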

Additional observations from a re-analysis of the deposited data

Results flagged for a closer look

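Dixon's test for 1 library far from the others of its group was applied to 55 combinations of member and group, and it marked 5, where chance marks about 1 in 20. Cldn3 in d0_KO_60 was 502.8 CPM, against 378 to 400.1 CPM in the other KO day 0 libraries. Library d3_WT_381 stood apart for 2 members: Cldn3 was 673 CPM there against 474 to 498 CPM in the others, and Ocln 138 CPM against 106 to 118 CPM. Ocln in d7_WT_393 was 119 CPM, against 88.7 to 96.1 CPM. Cldn15 in d7_KO_420 was 71.4 CPM, against 167 to 218 CPM in the other KO day 7 libraries.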

How the results depend on the processing

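No paired analysis was possible because the groups compared share no animal numbers. Between genotypes, 0 members were called under every alternative and in every fit without 1 library. Between day 3 and day 7 the count of called members went from 1 to 0 in WT with no filter, with a fit of all 38 libraries and with the immune covariate, and from 1 to 0 in KO with the last 2. The adjusted p of Ocln was then 0.0673, 0.0663 and 0.784 in WT and 0.0623 and 0.930 in KO. For day 7 against day 0 the immune covariate gave 1 member in WT and 0 in KO, where 3 were called without it. The slope on neutrophil markers gave 1 member under the DESeq2 Wald test. Among the alternatives that kept every library, 1 printed direction turned: Cldn15 in KO on day 3 against day 0 was 0.10 with the immune covariate, and it passed under DESeq2 size factors (adjusted p 0.0480) and the Wald test (0.0366). In the same comparison Cldn7 was 0.23 with the immune covariate (adjusted p 0.238). The immune sums of the days did not overlap between day 3 and day 7, nor in KO against day 0. There the covariate cannot be told apart from the day.

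Leaving out 1 library at a time, the called members ranged from 0 to 2 in WT and 0 to 3 in KO between day 3 and day 7, from 3 to 4 and 3 to 5 for day 3 against day 0, and from 3 to 3 and 3 to 4 for day 7 against day 0. The range was 0 to 0 for the genotype, interaction and neutrophil comparisons. In these fits the direction turned for 0 of the 15 member values called with all libraries and for 34 of the 93 not called, all of these at most 0.163 in size with all libraries. Tjp1 in KO on day 3 against day 0 is one of them.

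Counts over all genes moved more. KO against WT on day 0 called 177 genes by the Wald test, 52 with no filter and 0 with the immune covariate, where the main count was 5. On day 7 it called 83 by the Wald test, 38 in the fit of all libraries and 2 with no filter, against 1, and on day 3 it called 2 by the Wald test against 1. Over all days the Wald test called 19 against 4. The neutrophil slope called 1654 by the Wald test against 592. With the immune covariate 4142 genes were called in KO on day 3 against day 0, 5891 in WT and 80 in KO on day 7 against day 0, and 0 in both genotypes between day 3 and day 7. Depth limited Cldn1 alone among the members, since each of the others had at least 397 counts in every library.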

Other observations

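On day 7, Cldn4 and Cldn23 each stood low in 3 libraries of both genotypes, and in each genotype these are the ones with the lowest animal numbers. In KO they were d7_KO_366, d7_KO_367 and d7_KO_368. Cldn4 was 29.2, 26.1 and 39.3 CPM there, against 97.6 to 173 CPM in the other 4 libraries. Cldn23 was 47.3, 47.5 and 49.6 CPM, against 116 to 124 CPM. In WT they were d7_WT_356, d7_WT_361 and d7_WT_370, with Cldn4 at 55.8, 19.7 and 70.2 CPM against 92.2 to 128 CPM in the other 4, and Cldn23 at 65.2, 58.2 and 79.7 CPM against 103 to 137 CPM. The summed fibroblast markers were 192, 56.3 and 206 CPM in the 3 KO libraries and 10.6 to 22.7 CPM in the other 4. In WT they were 106, 54.9 and 53.4 CPM, against 4.46 to 67.5 CPM. These libraries were singled out after their values were seen.

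Library d7_KO_420 held the highest Cldn3, Cldn4, Cldn7, Cldn8, Ocln and Tjp1 of KO day 7 and the lowest Cldn15. It also had the highest neutrophil sum of all libraries, at 1369 CPM, the lowest crypt and proliferation sum, at 111 CPM, and the highest Hk2 of its group, at 260 CPM.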
